A study of Mus musculus with 8 samples.

Results

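Open chromatin was examined at 10 genes of the heat shock response, the transcription factor genes Hsf1 and Hsf2 and the chaperone genes Hspa1a, Hspa1b, Hsp90aa1, Hsph1, Dnajb1, Hspb1, Hspa8 and Hspd1, out of 21938 coding genes in GENCODE release M21 of the mouse annotation (build mm10). They were listed by name. For each gene, peaks were taken from the gene body and from 10 kb on either side of it, which gave 49 of the 84777 consensus regions, a consensus region being overlapping peaks merged across libraries and called in at least 2 of 8. A peak within 1 kb of any annotated transcript start of a gene was counted as its promoter peak, and a region more than 1 kb from every annotated start as distal.

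The cells were SN4741, a clonal mouse line from the embryonic substantia nigra that was immortalized with the temperature-sensitive tsA58 form of the SV40 large T antigen, driven by the tyrosine hydroxylase promoter, and which the study describes as polyploid and karyotypically unstable. The labels call the cells neural precursor cells with a WT genotype, and all 8 libraries came from this line and so carry the T antigen. The 4 libraries of the permissive condition came from cells at 37 °C in 10% fetal bovine serum, and the 4 libraries of the non-permissive condition from cells kept for 48 hours at 39 °C in 0.5% serum. Temperature and serum changed together and cannot be told apart in any comparison below. Nothing in the labels says that replicates were separate cultures, so the p-values measure the spread between these libraries, which may be technical.

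ATAC-seq reads accessibility from the sites at which a transposase inserts sequencing adapters into open DNA. The peak caller kept 49.8 to 169 M fragments (with M standing for mega) per library at 37 °C, of which 2 libraries (replicates 1 and 4) exceeded 100 M, and 52.7 to 71.2 M at 39 °C, and the lists held 74026 to 92013 peaks at 37 °C and 54845 to 68410 at 39 °C. The shortest list was that of 39 °C replicate 4. Of the 8 markers listed for neural precursors, 5 had a promoter peak in all 8 libraries, namely Nes, Sox2, Vim, Pax6 and Msi1. The peaks of Pax6 and Msi1 ranked lower in the lists than those of Nes, Sox2 and Vim. Sox1 had a peak in 4 of 4 libraries at 37 °C and 3 of 4 at 39 °C, while Prom1 and Fabp7 had none in any library. All 4 neuronal and all 4 mesenchymal markers listed were called in all 8 libraries, as were 2 of 4 glial markers and 0 of 2 blood markers, so promoter peaks did not set the labelled type apart from neurons or mesenchyme.

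The heat shock response is the induction of chaperone genes when proteins unfold. HSF1 is held inactive in unstressed cells, in part by the chaperones it induces, and on stress it forms trimers that bind heat shock elements, arrays of the short unit GAA in alternating orientation, in the promoters of its targets. HSF2 is a related factor that can bind the same elements and form mixed trimers with HSF1. Promoters of heat shock genes are known for being open and loaded with paused RNA polymerase before any stress.

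Heat shock elements were searched as exact letters on both strands, as 2 units (GAANNTTC or TTCNNGAA, each its own reverse complement) and as 3 units in alternating orientation, which contain both forms of 2 units and so overlap them. The RefSeq promoter table (GRCm38.p6, from 250 bases before to 50 after a start) held 10 promoters of 7 of the genes; Hsf1, Hsp90aa1 and Hspa8 had no entry. The stretches just before the starts of both inducible HSP70 genes and of Hspb1 are shown because they hold the element, in capitals, within 150 bases of the start. They lie at chr17:34972157-34972306 (minus strand), chr17:34959239-34959388 (minus strand) and chr5:135887769-135887918 (plus strand), each ends at the base before the start, and each is read 5′ to 3′ on the strand of its gene.
Hspa1a: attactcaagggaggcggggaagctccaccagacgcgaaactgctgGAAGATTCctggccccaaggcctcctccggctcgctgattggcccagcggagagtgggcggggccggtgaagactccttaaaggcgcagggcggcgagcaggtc
Hspa1b: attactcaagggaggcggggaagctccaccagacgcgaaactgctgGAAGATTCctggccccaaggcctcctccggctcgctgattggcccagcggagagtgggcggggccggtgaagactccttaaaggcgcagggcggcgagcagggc
Hspb1: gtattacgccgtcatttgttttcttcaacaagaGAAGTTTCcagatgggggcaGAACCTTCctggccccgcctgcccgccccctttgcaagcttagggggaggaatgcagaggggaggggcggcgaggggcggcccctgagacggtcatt

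Compared base by base without gaps, the stretches of Hspa1a and Hspa1b were identical at 149 of 150 bases, and over 250 bases before the start at 247 (98.8%). Their single element began at position -104, counted from the start, and the elements of Hspb1 began at -117 and -97. Longer arrays, of at least 3 units, lay close to a start of 4 other genes, and 30 bases around each are shown because they are the longest matches at the genes examined; that of Dnajb1, of 2 units, is shown with them. The site of Hspd1 is at chr1:55088055-55088084 (minus strand), that of Hsph1 at chr5:149636279-149636308 (minus), that of Hsp90aa1 at chr12:110696378-110696407 (minus), that of Hspa8 at chr9:40801055-40801084 (plus) and that of Dnajb1 at chr8:83608210-83608239 (plus), with the elements in capitals.
Hspd1: gcggggccTTCCGGAAGGTTCTAGAAcgga
Hsph1: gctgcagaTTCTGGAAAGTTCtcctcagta
Hsp90aa1: gagggttcTTCCGGAAGGTTCcggaggctt
Hspa8: gcgagcgtGAAAGTTCCAGAAcgccgcggt
Dnajb1: cgggaggggcgGAAGGTTCtggagggctgg

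In the RefSeq table, 6 of the 10 promoters of these genes held an element of 2 units, against 15.1% of all 32851 promoters of the same length, and 3 of 10 held one of 3 units, against 0.603%. GGGCGG, the core of the SP1 site, was in all 10 (35.7% of all promoters), CCAAT in 7 (37.4%), TATAAA in none (13.6%) and TGANTCA, the AP-1 site, in none (7.81%). The promoters were also rich in CpG, with a median observed-to-expected ratio of 0.84 against 0.384 over the table. Several of these promoters overlap or are near copies, so they are not independent. At the summits of the promoter peaks (100 bases on each side), 6 of 10 genes had an element of 2 units and 2, Hsp90aa1 and Hspa8, one of 3 units. The shares over 22078 consensus regions near starts were 7.07% and 0.245%. No exact match was found at the summits of Hsf1, Hsf2, Hspa1b and Hsph1, which says only that these letters are not within those windows. The array of Hsp90aa1 began 6 bases after the summit and that of Hspa8 began 78 bases after it, while the element of Hspa1a began 36 bases after its summit.

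All 10 genes had a promoter peak in all 8 libraries, as did 13145 coding genes (59.9%), so that being called at both temperatures was not particular to these genes. To rank them, each promoter peak was given its percentile within its own list, that is the percentage of the library's peaks with a lower −log10 q-value, taking the peak with the highest value where a gene had several. The median of the 10 genes was 97.9, against 89.96 over all 13145 genes. Libraries of different depth can be ranked this way because each peak is set only against others of its own list, but the percentile also depends on how many weak peaks a list holds. For that reason the percentile comparisons of the 10 promoters, and of the distal regions where a region was still called in all 8 libraries, were repeated with equal numbers of peaks, the 54845 highest of each list.

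**Figure D1:**
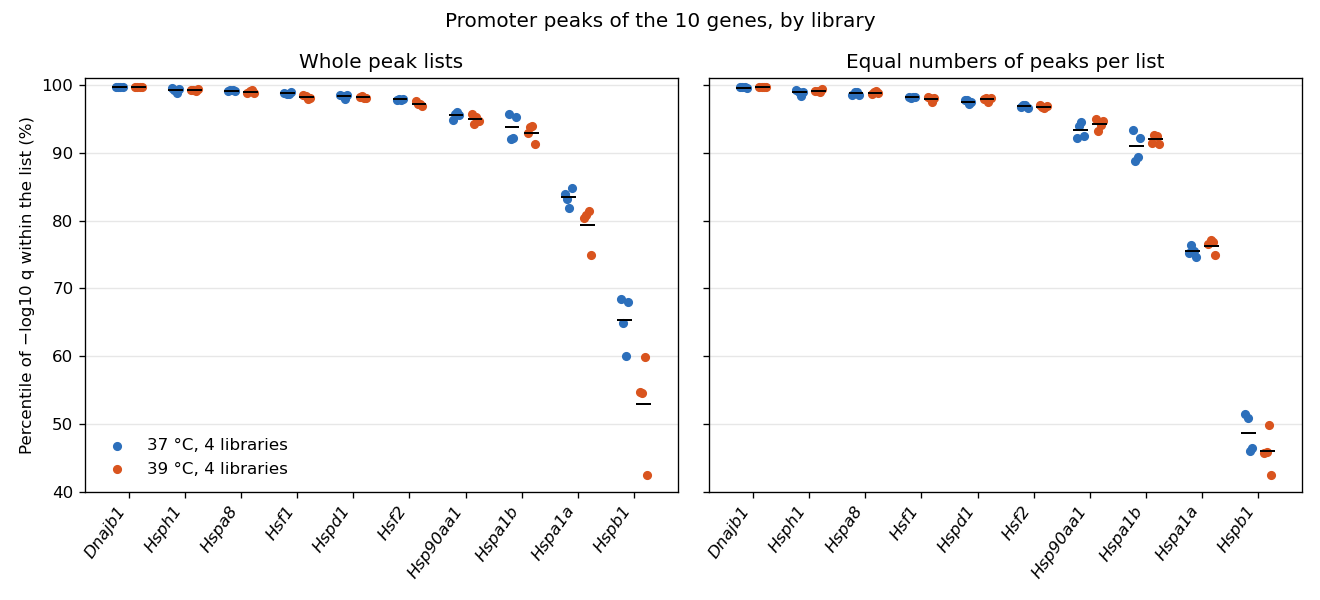
Percentile of −log10 q of the promoter peak within its list (vertical axis, %) for each gene, with 1 point per library (blue 37 °C, orange 39 °C) and a black line at the mean of 4 libraries. The left panel uses whole lists and the right panel the 54845 highest peaks of each list. From Dnajb1, at 99.8 at 37 °C, the genes step down to Hspa1a and Hspb1, and at Hspb1 all orange points lie below the blue ones on the left, while on the right 1 orange point, at 49.9, lies among the blue ones and the other 3 lie below them.

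With whole lists, 4 of the 10 promoters were called lower at 39 °C (Hspb1, Hsf1, Hspa1a and Hsf2) and none higher, by limma on the logit (log odds) of the percentile with Benjamini-Hochberg adjustment over 13145 genes. No other member reached an unadjusted p of 0.05 in either direction. This was no more than the background, in which 8032 genes (61.1%) were called lower and 73 (0.555%) higher. The median difference (39 °C minus 37 °C) over all genes was -0.319 on the logit scale, and the median of the 10 genes was smaller in size, at -0.169. With equal numbers of peaks, the median over all genes was -0.0179 and 0 of the 10 genes were called, also at an unadjusted p of 0.05 (12.5% of 12894 genes were then called lower and 5.74% higher). Of the 10 differences, 9 were below zero with whole lists and 3 with equal numbers, against 93.4% and 54.3% of all genes. Of the 4 calls, that of Hspb1 held with any single library left out. That of Hsf1 was lost without replicate 1 or 4 at 37 °C or replicate 2, 3 or 4 at 39 °C (limma adjusted p = 0.0577 to 0.107), that of Hsf2 without any library but replicate 1 at 39 °C (0.0670 to 0.102), and that of Hspa1a without replicate 1 or 4 at 37 °C or replicate 4 at 39 °C (0.0543 to 0.0785). Among the 6 uncalled differences, single libraries moved that of Hspa1b between -0.263 (without 37 °C replicate 2) and -0.0460 (without 37 °C replicate 1), that of Hsp90aa1 between -0.171 and -0.0606 (39 °C replicates 1 and 2), that of Hspa8 between -0.267 and -0.114 (39 °C replicates 3 and 4) and that of Hspd1 between -0.174 and -0.0545 (37 °C replicates 3 and 1). Among the 6 libraries with fewer than 100 M fragments, 0 of the 10 genes were called and 1 was lower at an unadjusted p of 0.05, while 30.5% of all 13145 genes were called lower and 0.738% higher.

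**Figure D2:**
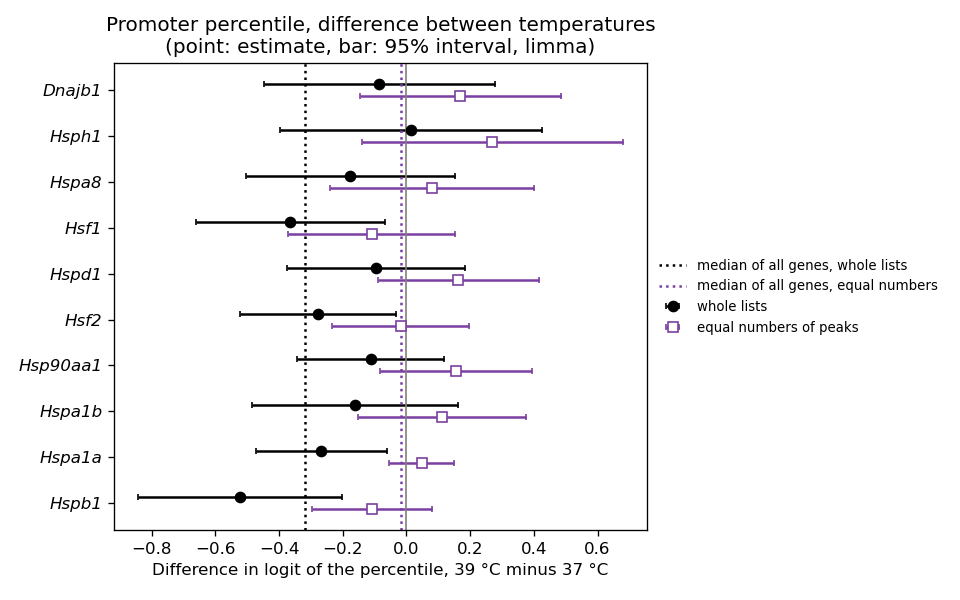
Difference between temperatures (39 °C minus 37 °C) in the logit of the promoter percentile, per gene, with its 95% interval from limma, for whole lists (black circles) and equal numbers of peaks (open purple squares). Dotted lines mark the medians over all genes, -0.319 and -0.0179. With whole lists 4 intervals stay below zero, those of Hsf1, Hsf2, Hspa1a and Hspb1, and with equal numbers of peaks every interval includes zero.

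Hsf1, the master regulator of the response (chr15:76477422-76501913, plus strand), had promoter percentiles of 98.8, 98.7, 98.7 and 99.0 at 37 °C and 98.6, 98.4, 98.0 and 98.1 at 39 °C, in replicates 1 to 4. All 4 libraries at 39 °C were below all 4 at 37 °C, which was so for 52.4% of the genes. The logit difference was -0.365 (SE 0.139; limma adjusted p = 0.0340), or -0.0455 relative to the median of all genes, and -0.109 with equal numbers of peaks (95% interval -0.370 to 0.153; adjusted p = 0.568). The peak is shared with the divergent neighbour Bop1, a ribosome biogenesis gene, and its summit fell at the same base, chr15:76477432, in every library. The signal of both genes cannot be separated there.

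Hsf2 (chr10:57486385-57513135, plus strand) had percentiles of 97.9, 97.9, 97.9 and 98.0 at 37 °C and 97.6, 97.3, 97.2 and 96.9 at 39 °C. The groups again did not overlap, with a logit difference of -0.277 (SE 0.115; adjusted p = 0.0478), but the difference with equal numbers of peaks was -0.0177 (95% interval -0.233 to 0.197; adjusted p = 0.925). Both factor genes ranked above 96 in every library, and neither was called with lists of one length. The Hsf2 peak is shared with the start of 4930467K11Rik. A second, weaker region at an internal start of Hsf2, chr10:57499549-57500662, was called in 2 of 4 libraries at 37 °C and 3 of 4 at 39 °C.

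Hspa1a and Hspa1b encode the stress-inducible HSP70, the main ATP-driven folding chaperone made on heat shock, and lie next to each other in the major histocompatibility region (chr17:34969190-34972156 and chr17:34956436-34959238, both on the minus strand). Hspa1a had percentiles of 83.9, 83.2, 81.9 and 84.9 at 37 °C and 80.4, 80.8, 81.4 and 74.9 at 39 °C. The fourth library at 39 °C lay well below the other 3. The logit difference was -0.267 (SE 0.0964; adjusted p = 0.0269), and with equal numbers of peaks it was 0.0480 (95% interval -0.0544 to 0.150; adjusted p = 0.515), in the opposite direction. Hspa1b ranked higher than its copy in every library, at 95.7, 92.1, 92.1 and 95.3 at 37 °C and 92.9, 93.8, 94.0 and 91.3 at 39 °C. Its groups overlapped, with a logit difference of -0.161 (95% interval -0.484 to 0.162; adjusted p = 0.357), and of 0.112 with equal numbers of peaks (-0.151 to 0.375; adjusted p = 0.557).

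The levels of both HSP70 genes are uncertain because the genes are near copies. Of the 50-base stretches of the Hspa1a promoter peak, 56.1% occur more than once in the genome and 54.4% occur in the Hspa1b peak, while 30.9% of those of the Hspa1b peak occur elsewhere. How reads matching both places were assigned is not given in the sources used here, so the gap between the genes was not resolved. The Hspa1a peak is also within 1 kb of starts of the testis-expressed relative Hspa1l. Repeated stretches were fewer at Hsp90aa1 (20.4%), Hspb1 (19.4%) and Hspa8 (13.9%), and 0.529% to 3.20% at the other 5 genes.

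Hsp90aa1 encodes the inducible form of HSP90, which matures kinases and steroid receptors and holds HSF1 in check (chr12:110690605-110702728, minus strand). Its highest promoter peak stood at an internal start, with percentiles of 94.9, 95.7, 96.0 and 95.6 at 37 °C and 95.8, 94.3, 95.3 and 94.7 at 39 °C. The groups overlapped, with a logit difference of -0.112 (95% interval -0.343 to 0.118; adjusted p = 0.367), and of 0.156 with equal numbers of peaks (-0.0831 to 0.395; adjusted p = 0.352). The region at the 5′-most start, chr12:110700684-110704137, was also called in all 8 libraries, and its mean percentile was 88.1 ± 1.21 in the permissive and 84.7 ± 1.09 in the non-permissive condition (SD, n = 4 each). This region was called lower with whole lists (logit difference -0.291, limma adjusted p = 0.0214), and its difference with equal numbers of peaks was 0.00107 (adjusted p = 0.990). The 3-unit array shown above is at the internal start.

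Dnajb1, the HSP40 that delivers clients to HSP70 and takes part in switching HSF1 off (chr8:83608193-83612653, plus strand), had percentiles of 99.8, 99.8, 99.8 and 99.8 at 37 °C and 99.8, 99.7, 99.8 and 99.7 at 39 °C, the top of the 10 in every library. Its peak also covers a start of Tecr, and its logit difference was -0.0849 (95% interval -0.448 to 0.278; adjusted p = 0.669), or 0.169 with equal numbers of peaks (-0.147 to 0.485; adjusted p = 0.452). Next by mean at 37 °C, though overlapping with Hspa8, came Hsph1. This HSP110, which exchanges the nucleotide of HSP70 (chr5:149614287-149636376, minus strand), had percentiles of 99.5, 99.2, 98.8 and 99.4 at 37 °C and 99.3, 99.3, 99.2 and 99.4 at 39 °C. It was the only one of the 10 with a difference above zero in whole lists, at 0.0146 (95% interval -0.397 to 0.426; adjusted p = 0.951), a sign that turned when 37 °C replicate 2 (-0.0188), 37 °C replicate 3 (-0.157) or 39 °C replicate 4 (-0.0344) was left out. Its difference was 0.270 with equal numbers of peaks (95% interval -0.140 to 0.680; adjusted p = 0.347).

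Hspb1, the small heat shock protein HSP27, which holds unfolded proteins without ATP (chr5:135887919-135889563, plus strand), had the lowest promoter peak of the 10, although its stretch before the start holds 2 elements. The percentiles were 68.4, 65.0, 60.0 and 68.1 at 37 °C and 54.7, 54.5, 59.8 and 42.4 at 39 °C, without overlap, though the lowest value at 37 °C and the highest at 39 °C were close. The mean fell by 12.5 points, the logit difference was -0.523 (SE 0.150; limma adjusted p = 0.00916; exact permutation test over libraries, two-sided, p = 0.0286, the smallest that 4 against 4 allows), and relative to the median of all genes it was -0.203. With equal numbers of peaks the percentiles were 51.5, 50.8, 46.0 and 46.4 at 37 °C and 45.7, 45.9, 49.9 and 42.4 at 39 °C. These overlap, and the difference was -0.108 (95% interval -0.297 to 0.0798; adjusted p = 0.413).

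Hspa8 encodes HSC70, the constitutive cytosolic HSP70 (chr9:40800984-40810087, plus strand), and Hspd1 the mitochondrial chaperonin HSP60 (chr1:55077835-55088243, minus strand). Hspa8 had percentiles of 99.1, 99.3, 99.3 and 99.2 at 37 °C and 98.9, 99.1, 99.3 and 98.8 at 39 °C, with a logit difference of -0.176 (95% interval -0.504 to 0.151; adjusted p = 0.319), and of 0.0791 with equal numbers of peaks (-0.241 to 0.400; adjusted p = 0.748). Hspd1 had 98.6, 98.4, 98.0 and 98.5 at 37 °C and 98.3, 98.4, 98.0 and 98.2 at 39 °C, with a difference of -0.0959 (95% interval -0.375 to 0.183; adjusted p = 0.525), and of 0.162 with equal numbers of peaks (-0.0905 to 0.415; adjusted p = 0.359). In both genes the groups overlapped. The Hspd1 peak spans the shared promoter from which Hspe1, the partner co-chaperonin HSP10, is transcribed the other way.

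At 37 °C the order of mean percentiles was Dnajb1, Hsph1, Hspa8, Hsf1, Hspd1, Hsf2, Hsp90aa1, Hspa1b, Hspa1a and Hspb1. Of the 9 neighbouring pairs in this order, the libraries overlapped between Hsph1 and Hspa8 and between Hsp90aa1 and Hspa1b. At 39 °C they overlapped between Hsph1 and Hspa8 and between Hsf1 and Hspd1. The libraries of Hspa1b and Hspa1a did not overlap (the lowest Hspa1b library at 37 °C was at 92.1 and the highest Hspa1a library at 84.9), a gap that reads shared between these copies leave unresolved, and neither did those of Hspa1a and Hspb1.

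Peak width, which the lists also give, varied widely among these genes. The promoter peak of Hspa8 was 11631, 10303, 9419 and 11299 bp wide at 37 °C and 9420, 9499, 9168 and 4027 bp at 39 °C, wider on average than that of 98.3% of the 13145 genes (median of all genes 2296 bp). It ran over the gene body, in which snoRNA genes such as Snord14c lie in introns. The peak of Dnajb1 was 10144, 7694, 3223 and 7670 bp wide at 37 °C and 6059, 4474, 6230 and 2725 bp at 39 °C, wider than that of 94.5% of genes. That of Hspa1b was 6011, 4518, 4680 and 6340 bp at 37 °C and 4974, 4501, 4089 and 3734 bp at 39 °C, wider than that of 90.8%. At the other end, the Hspb1 peak was 931 to 1812 bp wide in the 8 libraries, and 11.1% of genes had a narrower one.

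All 10 promoter peaks were narrower on average at 39 °C, as were 93.5% of all genes, with a median log2 difference of -0.292 against -0.194 over all genes, and 0 of 10 passed the threshold (limma on log2 width, Benjamini-Hochberg over 13145 genes; 2 at an unadjusted p under 0.05). In the background, 9.68% of genes were called narrower and 0.0533% wider. Hspd1 was the only one of the 10 whose widths did not overlap, which was so, with 39 °C below, for 23.4% of the genes. They were 4394, 4055, 4179 and 4836 bp at 37 °C and 3935, 4050, 3259 and 3229 bp at 39 °C (log2 difference -0.28, 95% interval -0.52 to -0.03; limma adjusted p = 0.128). For Hspa8, the log2 difference of -0.49 (SE 0.28) rested largely on 39 °C replicate 4, without which it was -0.18.

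**Figure D3:**
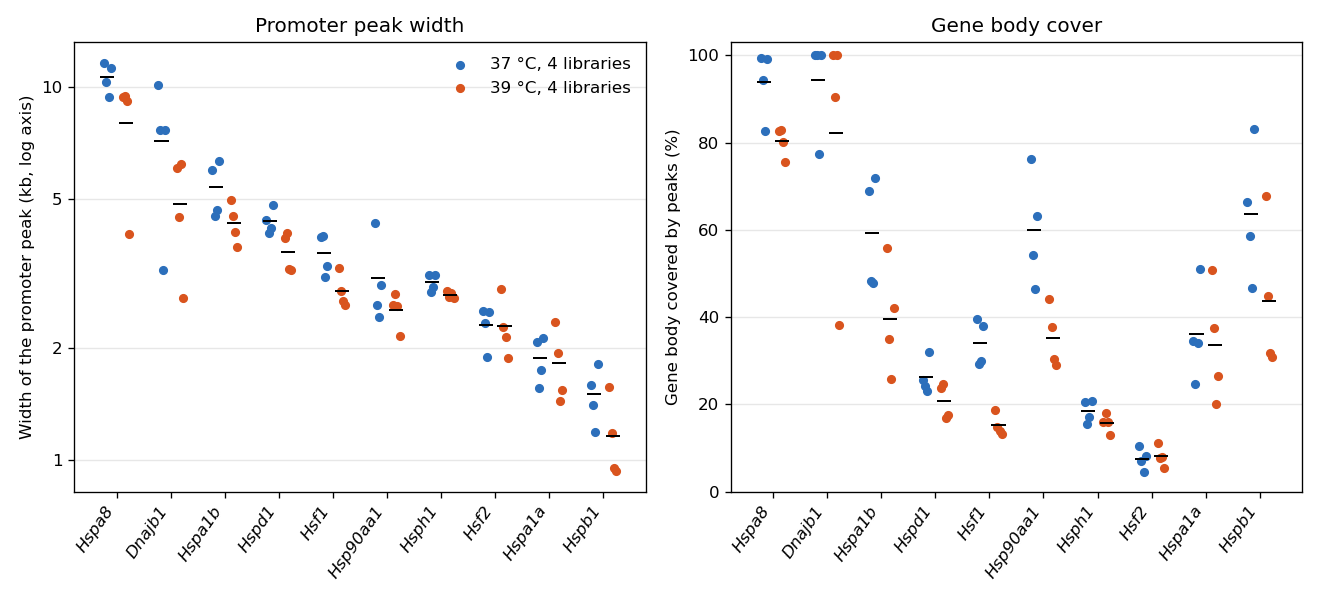
Width of the promoter peak in kb on a log axis (left) and percentage of the gene body covered by peaks (right), for each gene in order of its mean width at 37 °C, with 1 point per library (blue 37 °C, orange 39 °C) and a black line at the mean of 4 libraries. The peak of Hspa8 reaches 11631 bp, and the gene bodies of Hspa8 and Dnajb1 are covered for most of their length, while those of Hsf1 and Hsp90aa1 have all orange points below all blue points, as have 31.1% of the 13145 genes.

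The share of the gene body under peaks, a measure chosen after the widths had been seen and given without a test, was 82.7% to 99.5% at 37 °C and 75.5% to 83.0% at 39 °C for Hspa8, a gene of 9104 bp. For Dnajb1 (4461 bp) it was 100% in 3 libraries at 37 °C and in 2 at 39 °C, and lowest, at 38.2%, in 39 °C replicate 4. The medians over all genes were 12.3% and 8.92%. Hsf1 went from 39.6%, 29.2%, 29.9% and 38.0% to 18.8%, 14.7%, 13.9% and 13.3%, and Hsp90aa1 from 76.3%, 54.2%, 46.4% and 63.2% to 44.2%, 37.6%, 30.5% and 29.0%. In these 2 of the 10 genes all libraries at 39 °C were below all at 37 °C, against 31.1% of the 13145 genes. In each the highest values were those of the 2 deepest libraries; the part that depth plays in this was not tested.

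Beyond promoters, the 10 loci held 26 distal consensus regions. Single libraries called 18 to 26 of them at 37 °C and 11 to 17 at 39 °C, and 13 were called in more libraries at 37 °C, 2 in more at 39 °C and 11 equally. Of all 62699 distal consensus regions, 42.9% were called in more libraries at 37 °C, where the lists are longer, and 6.88% in more at 39 °C. Hspb1 had the most, with 6, followed by Hsf1 and Hsp90aa1 with 5 each and Hsph1 with 4, while Hspa8 had none. Elements of 2 units were within 100 bases of the summit of 5 of the 26 (19.2%), against 10.3% of all 62699 distal regions, and elements of 3 units in none (0.343%). TGANTCA was found in 5 (19.2%), against 34.3%.

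**Figure D4:**
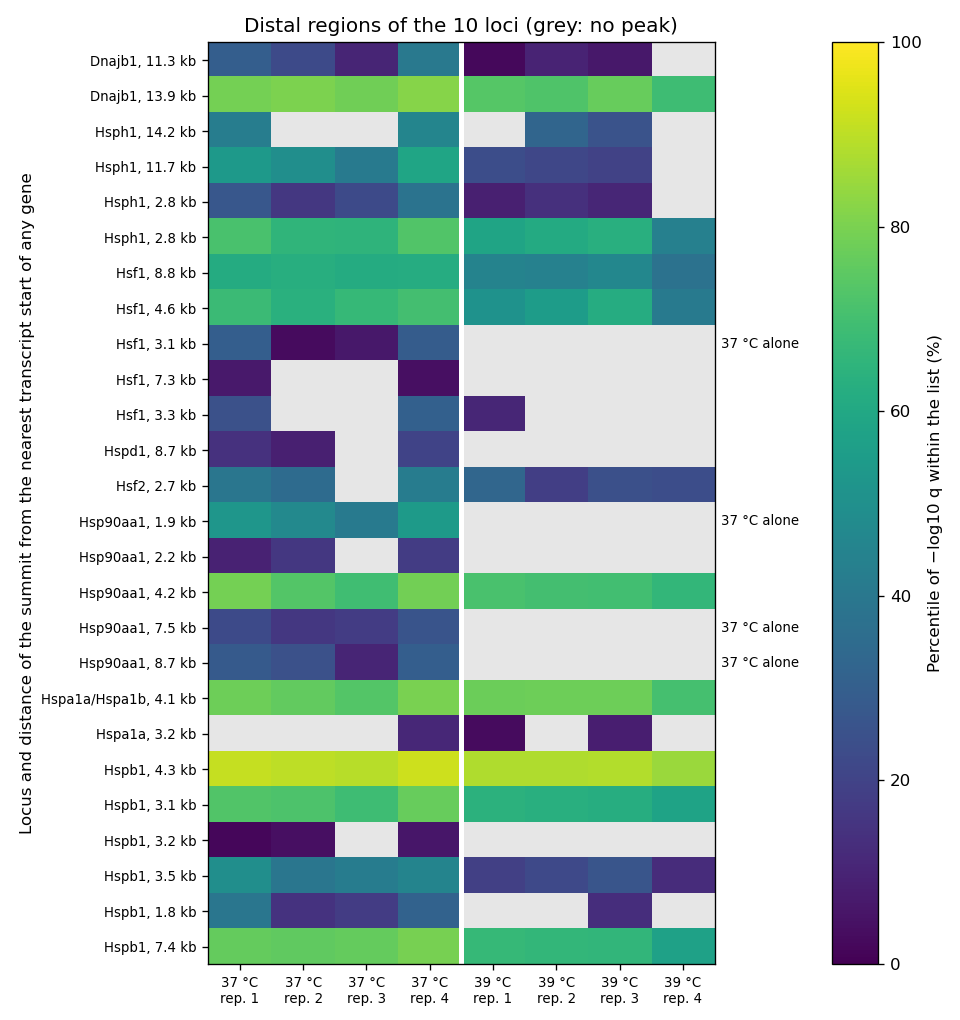
The 26 distal regions of the loci (rows, named by locus and by the distance in kb of the summit from the nearest transcript start of any gene) in the 8 libraries (columns), coloured by the percentile of −log10 q of the peak within its list and grey where a library called no peak. Regions marked at the right were called in all 4 libraries at 37 °C and in none at 39 °C; they number 4, of which 3 are at Hsp90aa1.

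Of the 26, 4 were called in all 4 libraries at 37 °C and in none at 39 °C, and 0 the other way round, against 6.24% and 0.407% of all distal consensus regions. Fisher's exact test gave p = 0.0286 for each, the smallest it can give here, and an adjusted p of 0.450 over all consensus regions, so presence alone passed no threshold at any region. Without 37 °C replicate 3, the shallowest library, the count was 7. Leaving it out loosens the rule for every region, and the share of all distal regions under that setting was not computed. The 7 can therefore not be read against the 6.24%. Hsp90aa1 had 3 of the 4. The strongest, chr12:110697844-110698877 in an intron of Hsp90aa1, 1939 bp from the nearest start, had percentiles of 52.5, 47.1, 41.2 and 54.7 at 37 °C. The regions chr12:110709974-110710584 (22.7, 16.1, 17.8 and 26.0) and chr12:110711013-110711869 (28.1, 24.9, 10.3 and 30.0) lay 7457 and 8716 bp upstream. The fourth, chr15:76480416-76481169 in an intron of Hsf1, 3083 bp from the nearest annotated start, ranked at 30.0, 2.80, 6.36 and 29.0, so that it was near the bottom of the list in both shallower libraries.

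With equal numbers of peaks, 1 of these 4 kept its pattern, the intronic region of Hsp90aa1, and 3.1% of all distal consensus regions showed it. The other 3 had no peak among the 54845 highest of any library. Another region with this pattern, chr5:149641453-149642589 in the Hsph1 locus, is within 1 kb of a start of Gm20005 and was not counted as distal. The sequence around the summits of the 4 regions (plus strand, 100 bases on each side) is shown to let the elements in them be compared with those of the promoters, with any heat shock element or TGANTCA in capitals.
Hsp90aa1 intron, chr12:110698234-110698434: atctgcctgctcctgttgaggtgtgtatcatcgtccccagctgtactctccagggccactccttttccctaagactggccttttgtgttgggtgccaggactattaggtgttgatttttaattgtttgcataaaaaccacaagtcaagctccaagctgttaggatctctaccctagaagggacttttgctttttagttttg
Hsp90aa1 upstream, chr12:110710085-110710285: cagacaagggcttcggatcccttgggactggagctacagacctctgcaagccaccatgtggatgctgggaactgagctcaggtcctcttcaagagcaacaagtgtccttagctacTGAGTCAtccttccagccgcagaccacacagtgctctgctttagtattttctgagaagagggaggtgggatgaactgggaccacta
Hsp90aa1 far upstream, chr12:110711344-110711544: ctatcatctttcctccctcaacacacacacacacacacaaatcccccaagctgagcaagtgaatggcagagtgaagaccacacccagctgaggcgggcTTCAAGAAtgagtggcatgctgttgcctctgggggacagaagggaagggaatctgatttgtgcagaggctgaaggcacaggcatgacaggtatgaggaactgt
Hsf1 intron, chr15:76480669-76480869: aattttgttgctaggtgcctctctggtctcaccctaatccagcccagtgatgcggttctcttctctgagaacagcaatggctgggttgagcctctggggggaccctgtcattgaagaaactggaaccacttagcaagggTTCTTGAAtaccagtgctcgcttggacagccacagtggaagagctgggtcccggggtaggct

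The most persistent of the 4, in the intron of Hsp90aa1, held neither motif in this window. The Hsf1 region and the farthest Hsp90aa1 region each held 1 element of 2 units, and the nearer upstream region of Hsp90aa1 held TGAGTCA.

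Distal regions called everywhere could be compared by percentile, and there were 10. With whole lists 9 were called lower at 39 °C and 0 higher (limma, Benjamini-Hochberg over the regions called in all 8 libraries; also 0 higher at an unadjusted p under 0.05), and 61.6% of 28663 such distal regions were called lower and 1.96% higher. The lowest adjusted p values were those of chr5:135899031-135908443 at the edge of the Hspb1 locus (logit difference -0.623, adjusted p = 0.000144) and chr15:76467611-76469118, an intron of Bop1 8811 bp from its nearest start (61.4, 62.6, 61.6 and 61.9 at 37 °C; 44.8, 44.1, 46.1 and 37.8 at 39 °C; difference -0.759, adjusted p = 0.000368). The edge region overlaps the locus, but its summit, chr5:135903865, lies more than 10 kb from Hspb1, and its percentile is that of its best peak. The other regions called lower were chr15:76472171-76474175, also in an intron of Bop1, in the Hsf1 locus (-0.624), chr12:110706000-110707799 at Hsp90aa1 (-0.304), chr5:149623514-149624616 at Hsph1 (-0.517), chr8:83621610-83622997 at Dnajb1 (-0.379), and chr5:135879073-135880876 (-0.336), chr5:135884355-135886216 (-0.497) and chr5:135892256-135893651 (-1.18) at Hspb1, with adjusted p from 0.00124 to 0.0434. The differences of these 7 with equal numbers of peaks were, in the same order, -0.236, 0.0486, -0.127, -0.0514, -0.0539, -0.145 and -0.926, and none passed the threshold (adjusted p from 0.0884 to 0.659).

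With equal numbers of peaks, 9 distal regions within the loci were called in all 8 libraries, and 1 was called lower and 1 higher (background 26.1% and 20.1% of 25659). The lower one was chr15:76467611-76469118 in the Bop1 intron, at 40.7, 47.4, 48.2 and 36.1 at 37 °C and 33.8, 33.5, 32.8 and 37.8 at 39 °C, where the groups overlapped (logit difference -0.362, adjusted p = 0.0254). The higher one was the region between Hspa1b and Hspa1a, chr17:34964353-34968723, which lies outside any gene, 4096 bp from the nearest start. It ranked at 65.9, 66.1, 63.7 and 66.5 at 37 °C and 73.1, 73.5, 72.3 and 70.5 at 39 °C (difference 0.321, adjusted p = 0.000709). With whole lists the same region stood at 77.8, 75.8, 73.1 and 80.0 at 37 °C and 77.5, 77.7, 77.8 and 70.5 at 39 °C, and its difference was -0.0418 (adjusted p = 0.780). The region at the edge of the Hspb1 locus left this count because its peaks among the 54845 highest begin beyond 10 kb from the gene. It was also called lower, at 63.6, 65.9, 68.0 and 65.3 at 37 °C and 60.5, 59.9, 57.4 and 57.2 at 39 °C, without overlap (difference -0.298, adjusted p = 0.00217), and 24.8% of distal regions had all libraries at 39 °C below all at 37 °C. The region between the HSP70 genes was the only distal region of the 10 loci called higher under either count of peaks. It was called only with equal numbers of peaks, where 1 of 9 was no more than the background of 20.1%.

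The wider set of chaperone and heat shock genes was read in the same way. Of 62 further genes listed, 61 were found in the annotation by symbol (Cct6a was not), 57 had a promoter peak in all 8 libraries and the median of their mean percentiles was 95.6. With whole lists 31 were called lower at 39 °C and 0 higher (also 0 higher at an unadjusted p under 0.05), beside the 61.1% and 0.555% of all genes given above. The smallest adjusted p values were those of Serpinh1, the collagen chaperone HSP47, which went from 89.7 ± 1.22 to 81.6 ± 2.99, of Cdc37, the adaptor that brings kinases to HSP90, from 84.7 ± 1.24 to 76.5 ± 1.77, and of Ptges3, the HSP90 co-chaperone p23, from 98.6 ± 0.106 to 97.3 ± 0.301 (SD, n = 4 each; limma adjusted p = 0.000355, 0.000416 and 0.000843). With equal numbers of peaks 8 were called lower and 2 higher (12.5% and 5.74% of all genes), and these 3 were among the lower, with logit differences of -0.390, -0.240 and -0.430 (limma adjusted p = 0.000476, 0.0353 and 0.0159). At an unadjusted p under 0.05, 9 were lower and 7 higher.

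The 2 called higher with equal numbers of peaks, both named after their values were seen, were the HSP40 genes Dnajb5, from 96.9 ± 0.167 to 98.0 ± 0.143, and Dnaja2, from 91.9 ± 0.586 to 93.8 ± 0.566 (SD, n = 4 each; limma adjusted p = 0.00900 and 0.0240). Hsf5 and Hspb3 had no promoter peak in any library. Hspa12b and Cryaa, the lens chaperone αA-crystallin, had one in 4 of 4 libraries at 37 °C and 0 of 4 at 39 °C, low in the lists at mean percentiles of 10.1 ± 3.99 and 14.3 ± 7.71 (SD, n = 4). Over 15065 coding genes, no such difference in presence passed Fisher's exact test after adjustment, and 324 had an unadjusted p under 0.05. Some entries of the list share a peak and are not independent, among them Hspb2 with Cryab, Hspe1 with Hspd1 and Hspa1l with Hspa1a.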

How the data were processed

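The deposited data were 8 peak lists from ATAC-seq of SN4741 cells, 4 at each temperature, grouped by the sample titles. The authors aligned paired reads to mm10 with Bowtie2 2.4.1, removed duplicates with SAMtools 1.15.1 and Picard 2.26.11 and called peaks for each library separately with MACS3 3.0.0a7, with a q-value cutoff of 0.05 and neither a control library nor a local background (tool versions from the submitters' processing notes and the file headers). For each peak the authors' lists give its position and width in bp, the pileup signal in fragments, a fold enrichment ratio over one background per library and the −log10 of the p-value and q-value. Peaks are numbered without gaps in every list, so a removal of blacklisted regions, which the methods describe, left no trace in the numbering. No counts of reads in regions were used, and depth was read as fragments kept by the caller.

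Percentiles were computed here from −log10 q by mid-rank. Promoters and distal regions were placed with GENCODE M21, and sequence came from RefSeq GRCm38.p6. Differences were fitted with limma 3.58.1 (R 4.3.3; temperature alone, trended eBayes) over all genes or regions called in 8 of 8 libraries, after a check on simulated data. That check planted shifts of 1 on the fitted scale in independent noise. They were larger than any promoter difference of the 10 genes, so it does not cover differences of that size. Presence was compared with Fisher's exact test. The 10 genes, the list of 62 further genes, the markers and the motifs were chosen with earlier results of these data known. All 10 genes were to be named, with the 3 further genes of smallest adjusted p in each direction, those not called everywhere, and each distal region that was restricted to a temperature or passed the threshold. Alternatives covered stricter peaks (−log10 q at least 5), equal numbers of peaks, single libraries left out, libraries under 100 M fragments, promoters of 500 bp, other scores and scales, a replicate block, a region overlap of 50%, flanks of 50 kb and other consensus minimums.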

Additional observations from a re-analysis of the deposited data

Results flagged for a closer look

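In 40 groups of 4 libraries (10 genes, percentile and width, 2 temperatures), the lowest or highest library stood apart from the other 3 by Dixon's criterion in 2, and about 1 group in 20 would do so by chance. Both were 39 °C replicate 4, which has the shortest list. Its Hspa1a promoter percentile was 74.9, against 80.4 to 81.4 in the other 3 libraries at 39 °C. Its Hspa8 promoter peak was 4027 bp wide, against 9168 to 9499 bp in the others.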

How the results depend on the processing

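The 10 promoter peaks were called in all libraries used with stricter peaks, equal numbers of peaks and promoters of 500 bp. Leaving out single libraries could not change this count. With stricter peaks, equal numbers, libraries under 100 M fragments, single libraries left out, a 50% overlap and 50 kb flanks, 0 distal regions were restricted to 39 °C. Of 372 recomputed values, 304 kept their direction and their side of the threshold (counts: stayed within 1.5 times). The 304 include values that did not move at all and so say nothing of stability. Among these were the promoter counts with single libraries left out and the percentile differences by fold enrichment. The width differences with stricter peaks and with equal numbers of peaks were also unchanged. The number of promoters with a different percentile went from 4 (61.7% of all genes) to 1 with peaks of −log10 q at least 5 (43.2%), to 0 with equal numbers of peaks (18.3%), to 0 with libraries under 100 M fragments (31.3%) and to 1 with the replicate block (52.1%), and lay between 1 and 4 with single libraries left out, where 45.2% to 64.2% of all genes were called (1 without any one of replicates 1 and 4 at 37 °C and replicate 4 at 39 °C, with 54.1%, 45.2% and 51.6% of all genes). The block result is given only here because same-numbered libraries did not deviate together (correlations of -0.196 to 0.218, and 0 of 4 replicates correlated best with their own number); under the block Hspb1 had an adjusted p of 0.0141. Promoters with a different width numbered 0 to 1 with single libraries left out (Hsf1, adjusted p 0.0401, without 37 °C replicate 3, where 26.2% of all genes were called). Distal regions numbered 13 with equal numbers of peaks and 64 with flanks of 50 kb. Those restricted to 37 °C numbered 2 with peaks of −log10 q at least 5, 1 with equal numbers of peaks (3.1% of all distal regions), 8 with flanks of 50 kb (6.24%, as flanks do not alter the whole set) and 4 to 7 with single libraries left out (7 without 37 °C replicate 3). The share of all distal regions was not computed for stricter peaks or single libraries left out, so those counts have no background. Distal regions with a different percentile went from 9 (63.5% of all) to 2 with equal numbers of peaks (46.3%) and 3 with libraries under 100 M fragments (30.6%; 6 to 10 with single libraries left out, with 49.7% to 68.7% of all). The cause of these changes was not tested.

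With equal numbers of peaks the percentile differences of Hspa1a (0.0480), Hspa1b (0.112), Hsp90aa1 (0.156), Dnajb1 (0.169), Hspa8 (0.0791) and Hspd1 (0.162) were above zero. So were those of the regions chr12:110700684-110704137 (0.00107), chr12:110706000-110707799 (0.0486), chr5:135876268-135878786 near a start of Gm22450 in the Hspb1 locus (0.0188) and chr15:76495783-76500730 at an internal start of Hsf1 (0.0709). All of these regions were called lower with whole lists (the last 2 at -0.335 and -0.298, limma adjusted p 0.0257 and 0.0470). With libraries under 100 M fragments the differences of Hspa1b (0.142) and Hspd1 (0.00598) were above zero. That of Hsph1 turned with single libraries left out (range -0.157 to 0.152). Width differences turned for Hsf2 (0.107), Hspa1a (0.111) and Hsp90aa1 (0.00844) with libraries under 100 M fragments, and for Hsf2 (-0.133 to 0.0697) and Hspa1a (-0.195 to 0.0412) with single libraries left out. Percentiles of fold enrichment equalled those of −log10 q. With 49.8 to 169 M fragments a library and no counts per region, regions called everywhere were compared here only by ranks and widths, and pileup and fold enrichment were not compared as levels.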
